A study of Mus musculus with 8 samples.

Results

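The growth hormone and IGF1 axis was followed through 10 genes in the liver of fasted mice: the receptor gene Ghr, the kinase gene Jak2, the transcription factor genes Stat5a and Stat5b, the feedback genes Socs2 and Cish, the hormone gene Igf1, and the carrier genes Igfals, Igfbp2 and Igfbp4. Members were the rows of the gene count table whose gene name was on this list, and each name matched 1 row of the 45706 in the table. All 10 passed the filter on low counts, which kept 14629 genes. The samples were livers of 8 female C57BL/6J mice, 4 months of age and fasted overnight, with 1 mRNA library per mouse read as 100 bp pairs. WT mice (n = 4) carried the unedited Plin5 gene. S155A mice (n = 4) carried a CRISPR-Cas9 knock-in and are given in the paper as SA/SA, with both copies of Plin5 edited. The knock-in put alanine in place of the serine at which protein kinase A phosphorylates PLIN5, a lipid droplet protein. The edit was made in the germ line, so every tissue carried it, under the gene's own promoter. The study asked what phosphorylation of this serine does in vivo.

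Growth hormone from the pituitary binds its receptor on hepatocytes, and the receptor-bound kinase JAK2 then phosphorylates STAT5A and STAT5B, which enter the nucleus and activate Igf1, Igfals, Socs2 and Cish. SOCS2 and CISH are inhibitors that dampen the same receptor, so their transcripts are commonly read as markers of recent growth hormone signalling. Liver IGF1 circulates largely in a complex with IGFBP3 and the acid-labile subunit, the product of Igfals, while IGFBP1, IGFBP2 and IGFBP4 bind IGFs outside that complex. Fasting is known to make the liver resistant to growth hormone and to raise Igfbp1 and Igfbp2.

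STAT5 dimers bind a palindrome with the letters TTCNNNGAA, and the promoter windows of the members were searched for it, since Cish and Igfals are textbook STAT5 targets. RefSeq windows of 250 bases before to 50 after a start (GRCm38.p6) were present for 9 of the 10 members, in 15 windows, with none for Socs2. The palindrome reads alike on both strands, and no other motif was searched. It was found in 3 of the 15 windows (20%), in 2 genes, against 2726 of 32851 windows of all genes (8.3%). The Cish window, chr9:107296409-107296708 on the plus strand, held 2 copies, a number met or passed in 0.457% of all windows. Their first letters were at positions 0 and 11, where 0 is the first transcribed base. The 2 Igfals windows on the plus strand each held 1 copy. In the first, chr17:24877594-24877893, it began at position -236, and in the second, chr17:24877981-24878280, at -58. All 3 are shown here 5′ to 3′ with the palindrome in capitals.
Cish: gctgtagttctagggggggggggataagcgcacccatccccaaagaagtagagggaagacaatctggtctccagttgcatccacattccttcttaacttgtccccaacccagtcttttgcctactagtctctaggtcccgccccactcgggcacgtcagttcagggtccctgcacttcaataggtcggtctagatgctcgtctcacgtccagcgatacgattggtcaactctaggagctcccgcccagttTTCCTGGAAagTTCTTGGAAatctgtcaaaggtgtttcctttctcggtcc
Igfals first window: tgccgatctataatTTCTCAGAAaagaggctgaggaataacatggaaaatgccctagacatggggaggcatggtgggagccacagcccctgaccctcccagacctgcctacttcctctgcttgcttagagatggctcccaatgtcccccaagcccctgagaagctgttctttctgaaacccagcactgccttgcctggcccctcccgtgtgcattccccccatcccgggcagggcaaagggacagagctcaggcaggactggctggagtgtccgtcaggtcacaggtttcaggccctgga
Igfals second window: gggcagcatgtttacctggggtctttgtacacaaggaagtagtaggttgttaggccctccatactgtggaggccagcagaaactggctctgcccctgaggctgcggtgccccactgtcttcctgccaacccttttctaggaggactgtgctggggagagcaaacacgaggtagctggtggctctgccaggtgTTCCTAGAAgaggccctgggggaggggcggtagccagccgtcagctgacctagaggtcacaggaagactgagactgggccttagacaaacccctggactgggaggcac
The windows of Ghr, Jak2, Stat5a, Stat5b, Igf1, Igfbp2 and Igfbp4 did not contain these letters, nor did the remaining Igfals window. A match of letters is a description of the sequence and not a measured binding site.

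The estimated counts per library summed to between 39709785 and 54540864, with S155A 3 the shallowest. CPM here is a count relative to its library's total after TMM scaling, which sets the libraries' typical genes level with each other. The labels give hepatocytes as the cell type, and hepatocyte markers led in every library, at 88102 to 126624 CPM summed over 8 genes. Markers of other liver cells were also present in every library, the 8 Kupffer cell and macrophage markers at 221 to 498 CPM in sum. S155A 3 stood apart in its lymphocyte markers, which summed to 91.4 CPM there and to at most 10.7 CPM in any WT mouse, with the plasma cell gene Jchain alone at 73.8 CPM. WT 2 stood apart in pancreatic acinar markers. Of that list, 6 of 8 genes were too low to be tested, and Ctrb1 had 400 counts in WT 2 and at most 13 elsewhere. The mice also carry animal numbers in the labels, 2 of each genotype under 200 (replicates 1 and 4) and 2 of each over 800 (replicates 2 and 3). What the numbers stand for is not stated. Plin5 itself cannot check the genotype labels, because a gene count does not see a codon. It was at 254, 194, 183 and 194 CPM in WT mice 1 to 4 and at 457, 276, 192 and 386 CPM in S155A mice 1 to 4 (log2 fold change 0.67, SE 0.241, edgeR adjusted p = 0.993). S155A 1, 2 and 4 lay above every WT mouse, and S155A 3 lay inside the WT range. The labels do not say which mice shared a litter or cage.

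No member of the axis differed between S155A and WT at an adjusted p under 0.05 in edgeR's quasi-likelihood test, nor at an unadjusted p under 0.05. The same count of 0 members at an adjusted p under 0.05 was given by DESeq2 and limma-voom. Over all 14629 genes edgeR called 0 (0%) at the adjusted threshold, and 497 (3.4%) were at an unadjusted p under 0.05. DESeq2 called 6 genes (0.041%), none of them a member. The members' log2 fold changes, S155A against WT, split into 5 above and 5 below 0 with a median of -0.0049, beside 48.8% of all genes above 0 and a median of -0.0050. Their range was -0.26 for Jak2 to 0.37 for Socs2.

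**Figure D1:**
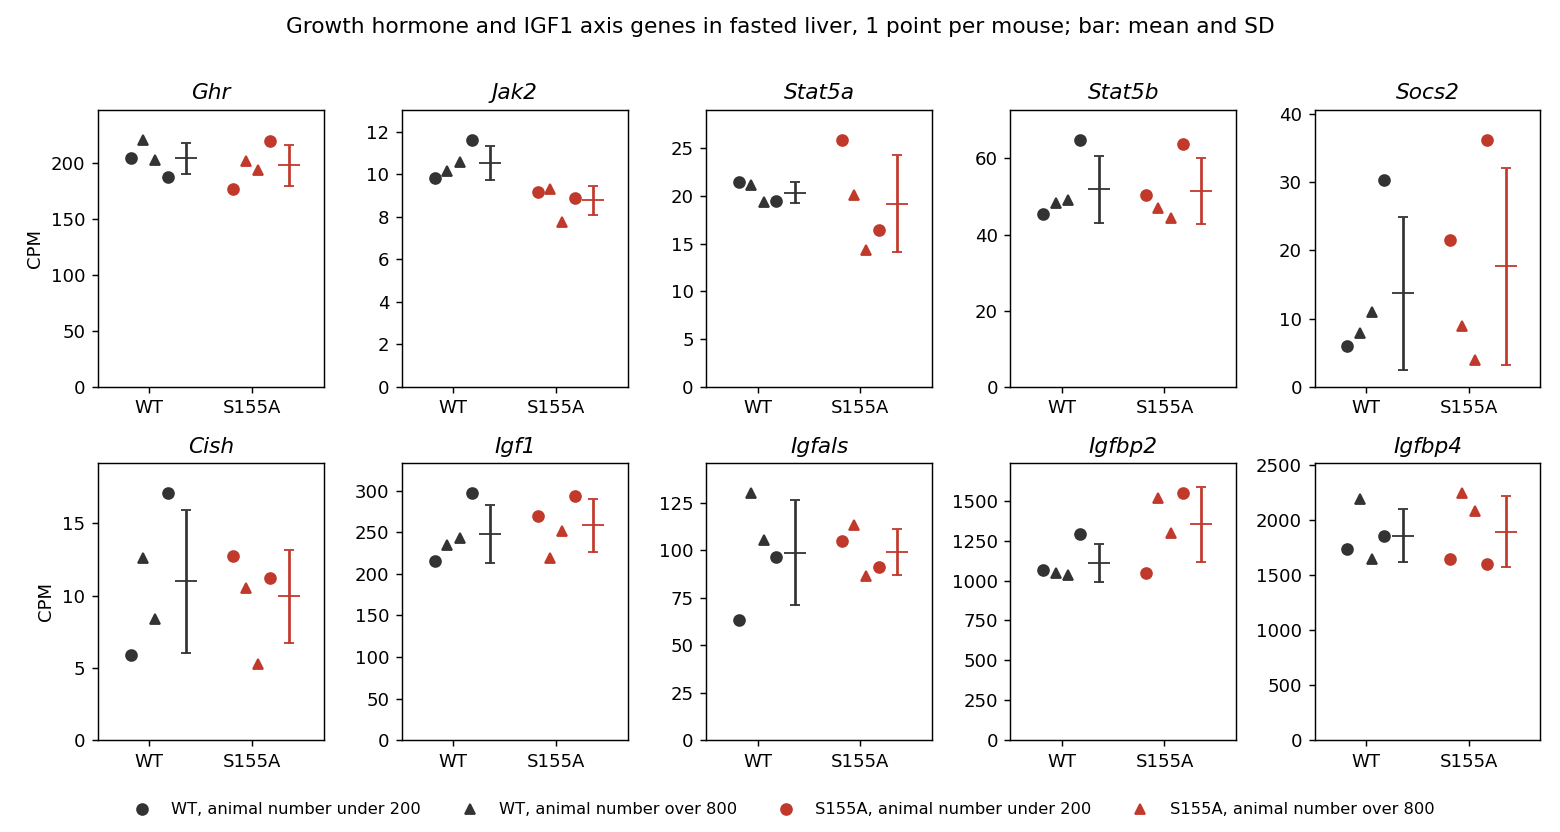
CPM of the 10 axis genes in each of the 8 livers, WT in black and S155A in red, circles for animal numbers under 200 and triangles for those over 800; the horizontal mark and bar are the mean and SD of 4 mice. Only the Jak2 panel has no overlap between genotypes (9.81 to 11.6 against 7.76 to 9.29 CPM), and Socs2 spreads from 3.96 to 36.3 CPM.

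Ghr encodes the growth hormone receptor (ENSMUSG00000055737, chromosome 15 of GRCm38 from 3317760 to 3583492, minus strand). It was the steadiest of the 10 genes. Its CPM was 205, 221, 202 and 188 in WT mice 1 to 4 and 176, 202, 193 and 219.5 in S155A mice 1 to 4. The genotypes overlapped over most of their range, and the coefficient of variation over all 8 mice was 7.54%. The log2 fold change was -0.04 (SE 0.102, edgeR adjusted p = 0.996).

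Jak2, the kinase that the receptor uses (ENSMUSG00000024789, chromosome 19 from 29251828 to 29313080, plus strand), was the only member whose genotypes did not overlap. Its CPM was 9.81, 10.1, 10.5 and 11.6 in WT mice 1 to 4 and 9.16, 9.29, 7.76 and 8.86 in S155A mice 1 to 4. Every S155A mouse lay below every WT mouse, with means of 8.77 ± 0.693 and 10.5 ± 0.790 CPM (SD, n = 4 each). An exact permutation test of mean log2 CPM, two-sided, gave p = 0.0286, the smallest that 4 against 4 mice allow. Groups without overlap always give this p, so it adds nothing to the lack of overlap. It was not adjusted over the 10 members. The log2 fold change was -0.26 (SE 0.119), with an unadjusted edgeR p of 0.0504 and an adjusted p of 0.993 over all genes tested. That is 1 member in 10 without overlap, beside 337 of 14629 genes (2.3%) overall and 199 (1.36%) with S155A lower. The difference of mean log2 CPM was -0.24 among mice with animal numbers under 200 and -0.28 among those over 800. Leaving out each mouse in turn kept the log2 fold change between -0.29 and -0.21. The negative signs of these values follow from the lack of overlap and are no further evidence. The Jak2 counts were 294 to 589 per library.

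Markers of other liver cells were read beside Jak2. Of 8 stellate cell markers, 7 had a log2 fold change below 0 (median -0.31), and their sum was 495 to 642 CPM in WT and 380 to 606 CPM in S155A. Of 8 endothelial markers, 6 were below 0 (median -0.20), with sums of 146 to 214 CPM in WT and 123 to 165 CPM in S155A. None of these 16 genes passed the test or was at an unadjusted p under 0.05, and each overlapped between genotypes. All 8 Kupffer cell markers were above 0 (median 0.24), but their median genotype difference was -0.40 among the lower animal numbers and 0.84 among the higher. WT 4 was the mouse with the most Jak2. It was also the highest for 7 of the 8 endothelial and 5 of the 8 stellate markers, beside 12.7% of all genes. S155A 2 was the lowest for 6 stellate and 4 endothelial markers, beside 13% of all genes, but had the most Jak2 of the S155A mice. S155A 3, with the least Jak2, was the lowest for 0 stellate markers and 1 endothelial marker, beside 16.1% of all genes. In whole liver, fewer cells of a type and less RNA per cell cannot be told apart, and the part of these cells in the Jak2 difference was not tested.

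Stat5a and Stat5b lie side by side on chromosome 11 and encode the paired transcription factors of the pathway, of which STAT5B is the main form in liver. Stat5a (ENSMUSG00000004043, 100859351 to 100885169, plus strand) was at 21.4, 21.1, 19.35 and 19.4 CPM in WT mice 1 to 4 and at 25.9, 20.1, 14.3 and 16.4 CPM in S155A mice 1 to 4. The WT mice sat close together, while S155A held both the highest and the lowest mouse of the 8. The SD was 1.10 CPM in WT and 5.08 CPM in S155A, and the log2 fold change was -0.08 (SE 0.170, edgeR adjusted p = 0.996). Stat5b (ENSMUSG00000020919, 100780731 to 100850724, minus strand) was at 45.5, 48.4, 49.0 and 65.0 CPM in WT and at 50.5, 47.1, 44.3 and 63.9 CPM in S155A. In each genotype 1 mouse, replicate 4, stood above the other 3, and the log2 fold change was -0.01 (SE 0.150, edgeR adjusted p = 0.999). The 2 genes share sequence: of all words of 100 bases in their annotated transcripts, 265 occur in both, 3.44% of those of Stat5a and 4.79% of those of Stat5b. Reads inside such stretches cannot be assigned to 1 gene with certainty. Stat5a also overlaps Stat3 on the opposite strand, and the use of strand in counting is not given in the sources used here.

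Socs2, a feedback inhibitor of the receptor (ENSMUSG00000020027, chromosome 10 from 95385362 to 95417180, minus strand), varied more than any other member. Its CPM was 5.93, 7.81, 10.9 and 30.3 in WT mice 1 to 4 and 21.6, 8.89, 3.96 and 36.3 in S155A mice 1 to 4. The 3 high mice were WT 4, S155A 4 and S155A 1, and the genotypes overlapped throughout. The highest mouse had 9.16 times the CPM of the lowest, and the coefficient of variation was 77.5%. The log2 fold change between genotypes was 0.37 (SE 0.664, edgeR adjusted p = 0.996). It was 1.11 without WT replicate 4 and -0.25 without S155A replicate 4, so single mice set its sign.

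Cish, the other feedback inhibitor (ENSMUSG00000032578, chromosome 9 from 107296026 to 107302784, plus strand), is the gene with 2 STAT5 palindromes at its start. It was at 5.87, 12.6, 8.36 and 17.1 CPM in WT mice 1 to 4 and at 12.7, 10.5, 5.28 and 11.2 CPM in S155A mice 1 to 4. The genotypes overlapped, with the top mouse in WT and the bottom mouse in S155A. Its coefficient of variation of 37.3% was the second largest of the 10, and the log2 fold change was -0.14 (SE 0.343, edgeR adjusted p = 0.996). The antisense genes Gm17040 and Gm17041 overlap Cish on the opposite strand.

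Igf1 (ENSMUSG00000020053, chromosome 10 from 87858265 to 87937042, plus strand) encodes the hormone that carries much of growth hormone's effect on growth. Its CPM was 215, 235, 243 and 297 in WT mice 1 to 4 and 269.6, 219, 252 and 294 in S155A mice 1 to 4. The genotypes overlapped over nearly their whole range, and replicate 4 was the highest mouse in each. The means were 248 ± 35.0 CPM in WT and 259 ± 31.8 CPM in S155A (SD, n = 4 each), and the log2 fold change was 0.06 (SE 0.132, edgeR adjusted p = 0.996). Igf1os overlaps Igf1 on the opposite strand.

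Igfals (ENSMUSG00000046070, chromosome 17 from 24865997 to 24882010, plus strand) encodes the acid-labile subunit that stabilises IGF1 in blood. It was at 63.1, 130.2, 105 and 96.7 CPM in WT mice 1 to 4 and at 105, 114, 86.7 and 91.3 CPM in S155A mice 1 to 4. All 4 S155A mice lay inside the WT range. The log2 fold change was 0.0044 (SE 0.196, edgeR adjusted p = 0.9998), and its sign turned to -0.04 when library size alone was used for scaling.

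Igfbp2 (ENSMUSG00000039323, chromosome 1 from 72824503 to 72852474, plus strand) encodes an IGF binding protein that hepatocytes make in quantity during fasting. Its CPM was 1066, 1050.45, 1036 and 1292 in WT mice 1 to 4 and 1045, 1517, 1298 and 1549 in S155A mice 1 to 4. In S155A, 3 mice exceeded every WT mouse, and the fourth, S155A 1, lay among the lower WT values. The log2 fold change was 0.28 (SE 0.144), with an unadjusted edgeR p of 0.0773 and an adjusted p of 0.993, and an exact two-sided permutation test gave p = 0.171. The difference of mean log2 CPM was 0.12 for animal numbers under 200 and 0.43 for those over 800. Hepatocyte markers summed to 92384 to 107554 CPM in WT and 88102 to 126624 CPM in S155A, with 6 of 8 above 0 in log2 fold change, none passing the test. The lowest sum, 88102 CPM, was that of S155A 4, the mouse with the most Igfbp2. Their part in the Igfbp2 values was not tested.

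Igfbp4 (ENSMUSG00000017493, chromosome 11 from 99041244 to 99054392, plus strand), which encodes a small carrier that holds IGFs away from their receptors, was at 1736, 2191, 1644 and 1854 CPM in WT mice 1 to 4. It was at 1644, 2243, 2083 and 1595 CPM in S155A mice 1 to 4, overlapping WT throughout. The log2 fold change was 0.03 (SE 0.147, edgeR adjusted p = 0.998), and with library size alone it was -0.02.

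**Figure D2:**
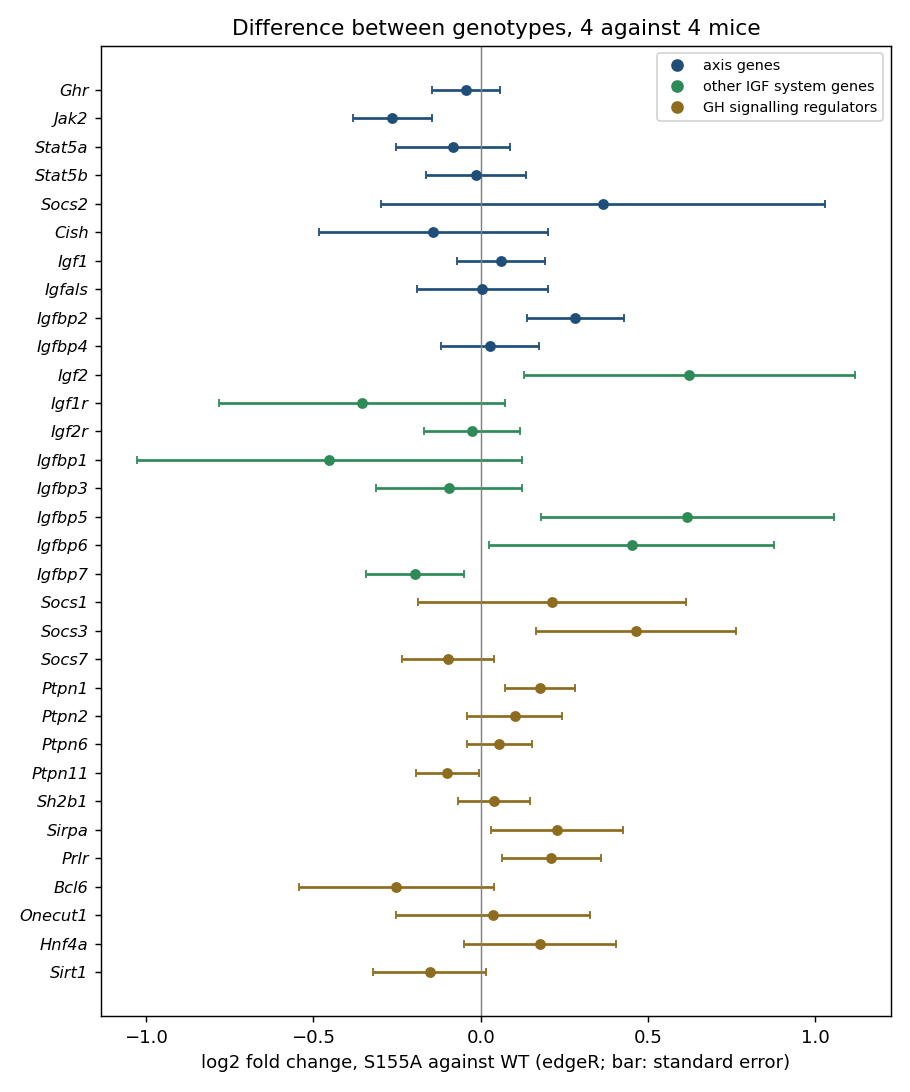
Log2 fold change of S155A against WT from edgeR with a standard error derived from its F statistic, 4 against 4 mice. Shown are the 10 axis genes (blue), 8 other IGF system genes (green) and 14 regulators of growth hormone signalling (brown). No gene passed the adjusted threshold; Jak2 lies at -0.26 and Igfbp2 at 0.28, and the widest bar among the axis genes is that of Socs2 (SE 0.664).

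Levels were compared between genes as CPM per kb of annotated exon, averaged over all 8 mice, and the order given is that of the 10 members. Igfbp2 stood at 667 ± 116 and Igfbp4 at 424 ± 59.5 (SD, n = 8), and each was apart from the gene next below it in every mouse. Igfals followed at 31.3, Igf1 at 25.6 and Ghr at 22.2, and these 3 overlapped. Stat5b was at 9.33, above Stat5a at 2.77, whose lowest mice overlapped Jak2. Jak2 (1.92), Socs2 (1.65) and Cish (1.63) came last by mean and overlapped with each other. Socs2 (0.415 to 3.81) and Cish (0.822 to 2.66) also overlapped Stat5a (2.01 to 3.63), and Socs2 was above Stat5a in WT 4 and S155A 4. The order within the Ghr, Igf1 and Igfals group and within the Jak2, Socs2 and Cish group rests on the length used. With the longest transcript in place of all exons, Ghr (48.1) stood above Igfals (37.7) and Igf1 (35.9), and Socs2 (3.70) and Cish (2.23) above Jak2 (1.92).

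The rest of the IGF system was read from a list of 12 genes, of which 8 were tested and Pappa, Pappa2, Stc1 and Stc2 were too low. None of the 8 passed, 0 were at an unadjusted p under 0.05, and 3 were above and 5 below 0 in log2 fold change, with a median of -0.06. Igfbp1, the carrier that fasting and low insulin raise most sharply, was at 51.0, 74.3, 162 and 258 CPM in WT mice 1 to 4 and at 25.4, 141, 145 and 87.0 CPM in S155A mice 1 to 4. It had a still wider span than Socs2, 10.1 times from lowest to highest, and its log2 fold change was -0.45 (SE 0.575, edgeR adjusted p = 0.993). Igfbp3, which liver makes mostly outside hepatocytes, was at 17.1 to 22.6 CPM in WT and 13.3 to 28.0 CPM in S155A, a log2 fold change of -0.09 (SE 0.219). Igf2, the fetal growth factor that adult mouse liver silences, had 18 to 66 counts per library, 0.336 to 1.20 CPM in WT and 0.389 to 1.32 CPM in S155A. Igf1r, the IGF1 receptor, was low, at 0.290 to 1.16 CPM over the 8 livers.

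Regulators of growth hormone signalling formed a list of 14 genes, all tested: suppressors of cytokine signalling, phosphatases, adaptors and transcription factors. None passed, 0 were at an unadjusted p under 0.05, and 10 were above and 4 below 0, with a median log2 fold change of 0.08. Prlr, the related prolactin receptor, was at 149 to 203 CPM in WT and 163 to 244 CPM in S155A. Socs3, the suppressor that inflammatory cytokines induce, was at 8.06 to 17.0 CPM in WT and 10.1 to 20.9 CPM in S155A, a log2 fold change of 0.46 (SE 0.298, edgeR adjusted p = 0.993). S155A 3, the mouse with the most lymphocyte marker RNA, was the highest for Socs3. S155A 2 came next for Socs3, at 18.8 CPM, and had the lowest lymphocyte marker sum of the S155A mice (7.76 CPM). All 8 lymphocyte and all 8 Kupffer cell markers were above 0 in log2 fold change (medians 0.72 and 0.24, none passing the adjusted threshold). S155A 3 alone was the highest mouse for 7 of the 8 lymphocyte markers. The median genotype difference of the lymphocyte markers was 0.14 (log2) among the lower animal numbers and 0.998 among the higher. For the Kupffer cell markers it was -0.40 and 0.84, so their direction differed between the ranges. The part of these cells in the Socs3 values was not tested. Prlr, Socs3, Igf1r and the genes named from the next list were singled out after their values had been seen.

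Growth hormone also sets which liver genes differ between the sexes, through its pulsed release in males and steadier release in females, so sex-biased genes offered a wider readout of the axis in these female mice. All 16 genes on the list of those higher in female liver were tested. None passed, 0 were at an unadjusted p under 0.05, 9 were above and 7 below 0, and the median log2 fold change was 0.01. Of 15 genes higher in male liver, 10 were tested, since Cyp4a12a, Cyp4a12b, Hsd3b5, Ugt2b38 and Moxd1 had at most 19 counts in any library. None passed, 0 were at an unadjusted p under 0.05, 4 were above and 6 below 0, and the median was -0.03. The summed CPM of the female-biased genes was 3172 to 4723 in WT and 3472 to 4901 in S155A. Cux2, a repressor of male-biased genes that female liver expresses, was at 1.44, 20.6, 11.8 and 19.0 CPM in WT mice 1 to 4 and at 40.5, 20.2, 21.4 and 29.5 CPM in S155A mice 1 to 4. WT 1 lay far below the other 7 mice, and the log2 fold change was 1.08 (SE 0.588, edgeR adjusted p = 0.993).

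**Figure D3:**
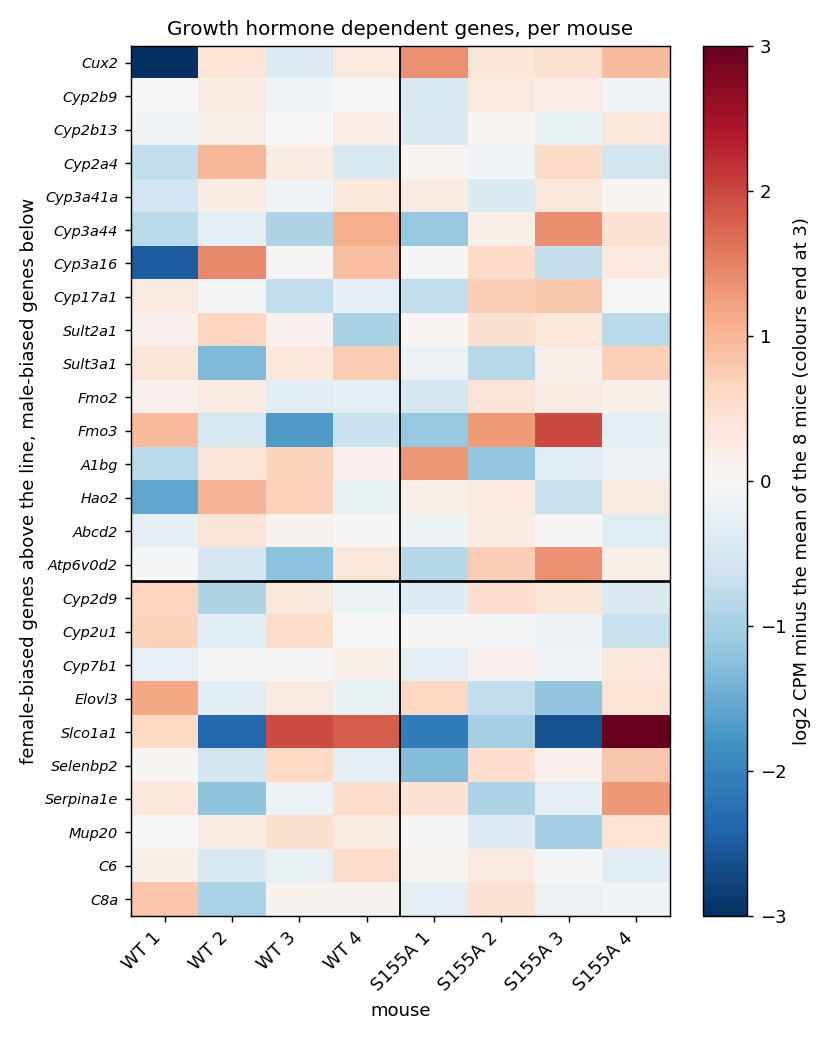
Log2 CPM minus the mean of the 8 mice for 16 female-biased genes (above the horizontal line) and 10 male-biased genes (below it); columns are the mice, WT left and S155A right of the vertical line, and colours end at 3. No block of genes separates the genotypes; the deepest blue among the female-biased genes is Cux2 in WT 1, at 1.44 CPM.

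The animal number ranges were tested with genotype in the same edgeR fit. Between mice over 800 and mice under 200, 0 members passed the adjusted threshold and 1 of 10, Socs2, had an unadjusted p under 0.05, beside 1877 of 14629 genes (12.8%). The count of all genes passing was 0 (0%) in edgeR and 408 (2.79%) in DESeq2, which called 0 members. Socs2 averaged 7.89 ± 2.91 CPM over 800 and 23.5 ± 13.2 CPM under 200 (SD, n = 4 each). Its log2 difference, over 800 minus under 200, was -1.55 (SE 0.507), with an unadjusted edgeR p of 0.0131 and an adjusted p of 0.273. The ranges overlapped, because WT 1, numbered under 200, had the second lowest Socs2 of all 8 mice, and an exact permutation test of 4 against 4 gave p = 0.114. For the other 9 members the difference ran from -0.36 (Cish) to 0.30 (Igfals), with adjusted p of 0.426 or more.

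Within the ranges, each with 2 mice of each genotype, Socs2 pointed opposite ways. The S155A minus WT difference of mean log2 CPM was 1.06 under 200 and -0.63 over 800. Every other member except Jak2 and Igfbp2 also changed sign, among them Cish (0.25 and -0.46), Igfals (0.32 and -0.24) and Igfbp4 (-0.15 and 0.19). The interaction of genotype with range, tested in edgeR, called 0 members and 0 genes overall (0%), and 0 members were at an unadjusted p under 0.05, beside 1622 genes (11.1%). DESeq2 called 285 genes (1.95%) and 0 members. Of the sex-biased genes, 5 of 16 female-biased and 4 of 10 male-biased ones were at an unadjusted interaction p under 0.05, in both directions, and none passed the adjusted threshold. The interaction of Socs2 was -1.21 (SE 0.934, adjusted p = 0.674), with -2.82 when WT 4 was left out and -0.46 when WT 1 was, so a difference between the ranges in how genotype bears on Socs2 was not shown with 2 mice a cell.

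**Figure D4:**
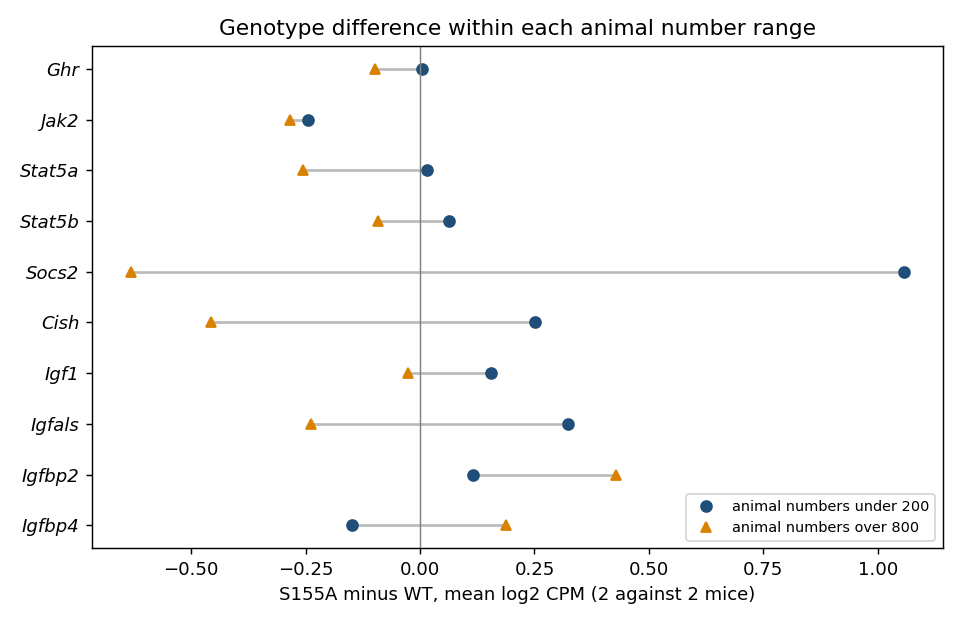
S155A minus WT difference of mean log2 CPM within each animal number range, 2 against 2 mice, circles under 200 and triangles over 800. Jak2 is at -0.24 and -0.28, whereas Socs2 is at 1.06 and -0.63.

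Mice were then compared as individuals, with 8 pairs of axis genes correlated in log2 CPM over the 8 mice. Socs2 and Cish, both feedback genes, gave Pearson's r = 0.780 (exact permutation p = 0.0253, adjusted over the 8 pairs 0.101) and Spearman's rho = 0.714 (exact permutation p = 0.0576, adjusted 0.230). Igf1 and Socs2 gave r = 0.803 (exact permutation p = 0.0210, adjusted 0.101) and rho = 0.714 (exact permutation p = 0.0576, adjusted 0.230). No pair passed after adjustment. Without WT 4 and S155A 4, the mice farthest from the median, r was 0.774 for Socs2 and Cish but 0.458 for Igf1 and Socs2, so the second rests on those mice. After centring each animal number range on its own mean, r was 0.807 for Socs2 and Cish and 0.716 for Igf1 and Socs2. A range holds 4 mice, too few for a correlation of its own. Igf1 and its partner gene Igfals gave r = 0.0898 (exact permutation p = 0.851), and r = 0.494 after centring on the range. Igf1 and its upstream receptor gene Ghr gave r = -0.256 (exact permutation p = 0.535), and r = -0.686 without the 2 farthest mice. The other 4 pairs had r between -0.0841 (Stat5a and Stat5b) and 0.440 (Igfbp1 and Igfbp2). Both ends moved with the setting. Stat5a and Stat5b moved to -0.749 without S155A 1 and S155A 3. Igfbp1 and Igfbp2 moved to 0.731 after centring on genotype (permutation p = 0.0399, adjusted 0.106). That p is approximate, because values centred within a genotype cannot be swapped freely between genotypes.

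**Figure D5:**
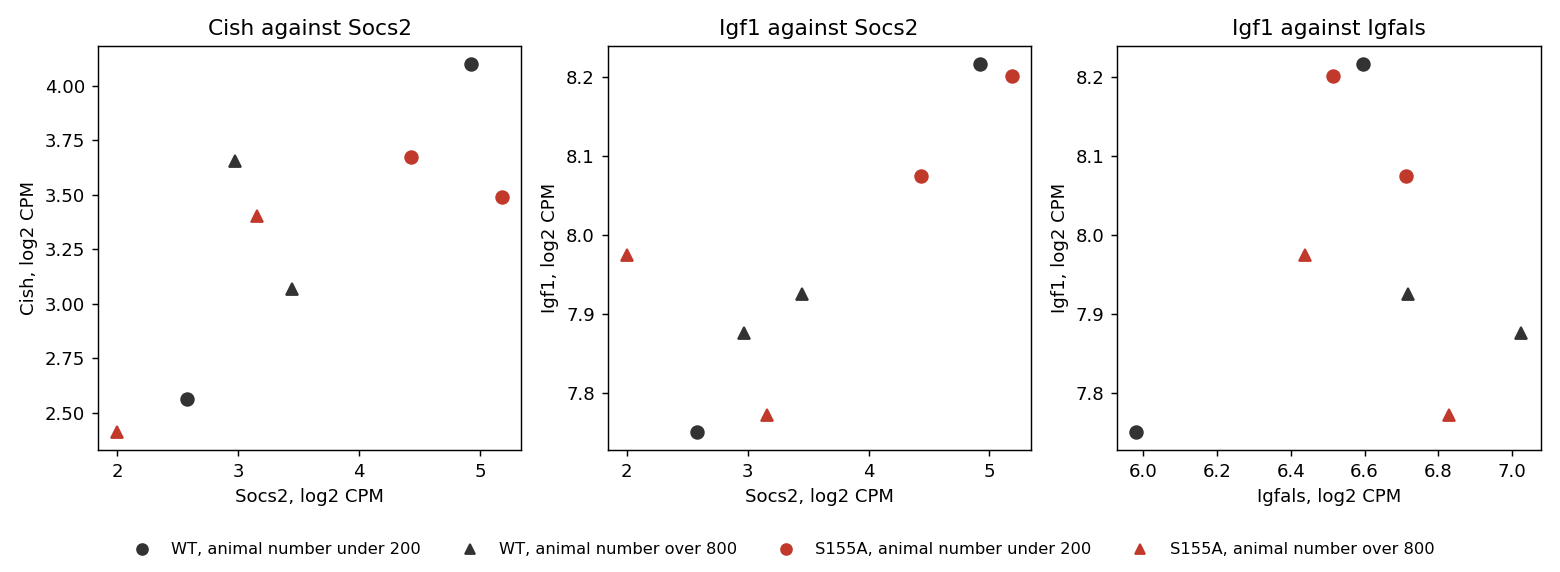
Log2 CPM of 3 gene pairs, 1 point per mouse, WT black and S155A red, circles for animal numbers under 200 and triangles for those over 800. Cish against Socs2 has r = 0.780, Igf1 against Socs2 has r = 0.803, where the top points are the fourth replicates, and Igf1 against Igfals has r = 0.0898.

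Among 7429 genes with a mean of at least 10 CPM, those whose log2 CPM tracked Igf1 most closely over the 8 mice were Kctd10 (r = 0.933), Atf4 (r = 0.925) and Snhg12 (r = 0.923). Those tracking Socs2 most closely were B3gat3 (r = 0.981), Cda (r = 0.975) and Ptpn9 (r = 0.971). These are the top of a long ranking over the same 8 libraries, which differ in depth and composition, and they are given as a description without a test. B3gat3 itself ran from 40.8 to 77.4 CPM, a narrower span than Socs2.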

How the data were processed

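The deposited values were salmon's estimated counts for each gene, merged over samples and length scaled by the authors but not normalized for library size. Their processing notes also list GRCm38, STAR, SAMtools and DESeq2. The salmon version, annotation release and use of strand are not given in the sources used here. Estimated counts were rounded, genes were kept with filterByExpr (14629 of 45706), and edgeR 4.0.16 (R 4.3.3) tested S155A against WT over all 8 mice by its quasi-likelihood test after TMM, with Benjamini-Hochberg adjustment at 0.05. Standard errors (SE) given with edgeR values were derived from the test, as the absolute log2 difference divided by the square root of its F statistic. Log2 CPM used a prior count of 2. Animal number range and its interaction with genotype were added to the same model. Exact permutation tests and correlations used scipy 1.17.1. Gene positions and exon lengths came from GENCODE M21, which held 45143 of the gene identifiers, and promoters from RefSeq.

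The members and gene lists were chosen with earlier results of these data known. Genes named were the 10 members, Igf2, Igfbp1, Igfbp3, genes of the other pathway lists at an unadjusted p under 0.05 between genotypes (none), and the 3 most like Igf1 and Socs2. Plin5 and cell type markers served as checks, and any other gene was named after its values were seen. Alternatives were DESeq2 1.42.0, limma-voom (limma 3.58.1), other scalings and filters, a replicate block, a range covariate and leaving out each mouse. The fits were checked on simulated counts. A planned comparison of the STAT5 proteins was not run, and shared transcript words were counted instead. The p-values set differences against the variation between these mice and treat the mice as independent. Which of them shared a litter or cage is not stated.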

Additional observations from a re-analysis of the deposited data

Results flagged for a closer look

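Igfbp2 in WT 4 stood away from its group: it was at 1292 CPM, whereas the other 3 WT mice were at 1036 to 1066 CPM, a gap that takes up 0.883 of the WT range. It was the only such value among the 26 groups of 4 mice searched (13 genes in 2 genotypes), where chance gives about 1.3. WT 4 was also the highest of the 8 mice for Jak2, Stat5b, Cish and Igf1.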

How the results depend on the processing

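No member and no gene of the 4 pathway lists was called between genotypes under any alternative run. DESeq2 called 6 genes between genotypes, 408 between animal number ranges and 285 in the interaction, where edgeR called 0 each time; the cause was not tested. Leaving out each mouse in turn gave 0 genes between genotypes, 0 to 111 between ranges (111 without WT replicate 3, 1 each without S155A replicates 2 and 4) and 0 to 40 in the interaction (40 without WT replicate 4, 5 without S155A replicate 2, 1 without WT replicate 3). Whether the replicate numbers pair the mice was not settled. Deviations of same-numbered mice correlated at only 0.06, 0.17, -0.11 and 0.13. Numbers 1, 2 and 4 were each closest to their own number, and number 3 was not. Neighbouring animal numbers were 89 and 90 (WT 4 and S155A 4) and 830 and 831 (S155A 2 and S155A 3). With the replicate block 0 genes were called, and 579 against 497 were at an unadjusted p under 0.05.

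Signs of small differences turned. With library size alone the log2 fold change was -0.0353 for Igfals and -0.018 for Igfbp4 (difference of mean log2 CPM -0.0183). Leaving out single mice, the genotype log2 fold change ran from -0.0982 to 0.0064 for Ghr, -0.26 to 0.0344 for Stat5a, -0.14 to 0.11 for Stat5b, -0.25 to 1.11 for Socs2, -0.35 to 0.16 for Cish, -0.0052 to 0.16 for Igf1, -0.16 to 0.17 for Igfals, -0.0576 to 0.12 for Igfbp4, -0.73 to 0.0557 for Igfbp1 and -0.38 to 0.0296 for Igfbp3. For Jak2 it ran from -0.29 to -0.21 and for Igfbp2 from 0.21 to 0.39. The range difference ran from -0.25 to 0.0177 for Stat5a, -0.16 to 0.0591 for Igfbp2, -0.36 to 0.55 for Igf2 and -0.0429 to 0.36 for Igfbp3. The interaction ran from -0.26 to 0.0554 for Ghr, -0.16 to 0.0943 for Jak2, -0.58 to 0.0799 for Stat5a, -0.42 to 0.10 for Stat5b, -1.43 to 0.12 for Cish, -0.41 to 0.0584 for Igf1 and -0.20 to 2.10 for Igf2. The correlation of Igf1 with Igfbp2 was -0.329 without the 2 mice farthest from the median, and that of Jak2 with Ghr -0.312 after centring on genotype. The standard errors of the members' log2 fold changes were 0.102 to 0.664.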

Other observations

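Single mice took the extreme places of the axis genes unevenly, a pattern noticed after the values were seen and not tested. S155A 3 was the lowest of the 8 mice for 5 of the 10 members (Jak2, Stat5a, Stat5b, Socs2 and Cish), beside 16.1% of all genes. It was the shallowest library and the one with 91.4 CPM of lymphocyte markers, whose part in these values was not tested. WT 4 was the highest for 4 members, beside 12.7% of all genes.

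WT 1 had the lowest Igf1 (215 CPM) and Igfals (63.1 CPM) of the 8 mice. It was also the lowest for 5 of 16 female-biased genes (Cux2, Cyp2a4, Cyp3a41a, Cyp3a16 and Hao2), beside 14.6% of all genes, and the highest for 4 of 10 male-biased genes (Cyp2d9, Cyp2u1, Elovl3 and C8a), beside 16.1%. Other mice took as many extreme places. S155A 1 was also the lowest for 5 female-biased genes (beside 10.6% of all genes), and S155A 4 was also the highest for 4 male-biased genes (10.9%). S155A 3 was the highest for 5 female-biased genes (14%). WT 2 was the highest for 5 female-biased genes (12.1%) and the lowest for 4 male-biased genes (10.7%). Cyp3a16, a female-biased cytochrome P450, was at 5.13 CPM in WT 1 and 17.5 to 78.5 CPM in the others. Bcl6, a repressor of female-biased genes, was highest in WT 1, at 17.5 CPM.

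Of genes outside the 10 members, Socs3 and Igfbp5 had the smallest unadjusted interaction p of their lists. Socs3 had a genotype difference of -0.32 (log2) under 200 and 1.23 over 800 (edgeR unadjusted p = 0.00114, adjusted 0.232). For Igfbp5 the values were -0.64 and 1.79 (edgeR unadjusted p = 0.00147, adjusted 0.253). Neither passed. Kupffer cell and macrophage markers showed the same signs, with medians of -0.40 under 200 and 0.84 over 800. Of these markers, 5 of 8 were at an unadjusted edgeR interaction p under 0.05, beside 11.1% of all genes, and none passed after adjustment. The signs were not particular to them. Hepatocyte markers had medians of -0.10 and 0.30, with 3 of 8 at that unadjusted p. The other IGF system genes (-0.36 and 0.30), the regulators (-0.07 and 0.19) and both sex-biased lists also had these signs. The 10 members had the opposite signs (0.09 and -0.17). Medians of stellate, endothelial, cholangiocyte, acinar and lymphocyte markers kept their sign. Adgre1, a macrophage marker chosen after its values were seen, had an unadjusted edgeR p of 0.000152. The part of any of these cell types in the Socs3 and Igfbp5 values was not tested.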
